A study of Oryctolagus cuniculus with 4 samples.

Results

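The collagen genes of the rabbit bladder mucosa were taken as each row of the gene annotation whose symbol reads COL, a chain number, A and a further number, in either case. This rule found 27 of the 18475 rows, of which 9771 carry a symbol, and used no measured value. By class, 7 of the 27 code for chains of fibrillar collagens (COL1A1, COL1A2, COL3A1, COL5A2, COL11A1, COL11A2 and COL24A1), 7 for chains of basement membrane collagens (COL4A1 to COL4A6 and COL15A1), and 13 for other collagens. The 13 others are COL6A5, COL6A6, COL8A1, COL9A1, COL9A2, COL12A1, COL14A1, COL17A1, COL19A1, COL21A1, COL23A1, COL25A1 and COL28A1. Collagens with no row under such a symbol, such as COL5A1 and COL6A1, were not analysed here.

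The study compared bladder mucosa of 2 normal rabbits (Normal_1 and Normal_2) with that of 2 injured rabbits (Injury_1 and Injury_2) by droplet-based single-cell RNA sequencing, to follow the cells of the mucosa through repair. The animals were adult New Zealand rabbits with no genetic change named, and each gave 1 library. Injury was the surgical removal of a patch of mucosa, and the injured samples date from day 10, by which time urothelium again lined the wound. The normal samples came from mucosa at homeostasis. The labels name the tissue urothelium, but the dissected mucosa holds stroma too: fibroblast-like and endothelial-like cells outnumbered epithelial-like cells in each library. With 2 animals a group, an exact permutation test of a single value cannot go below p = 0.333, so tests were run across all genes with edgeR.

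Collagens are trimers of chains that wind into a triple helix. Fibrillar collagens (types I, III, V, XI and XXIV) assemble into the fibrils that give the lamina propria its tensile strength, and fibril-associated collagens such as types XII and XIV sit on the fibril surface. Type IV collagen forms the sheet-like network of basement membranes under epithelium and around vessels and muscle cells, from COL4A1 with COL4A2, from COL4A3 with COL4A4 and COL4A5, or from COL4A5 with COL4A6. Type XVII collagen is a transmembrane protein of the hemidesmosomes that anchor basal epithelial cells, and type VIII is a short-chain network collagen.

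After filtering, 21945 cells remained, with 24798544 UMIs (unique molecular identifiers, each counting 1 captured RNA molecule) in Normal_1 and 43681328 to 44542420 in each of the other libraries. The libraries shared 4 to 12 cell barcodes a pair. Cell classes were rebuilt by clustering without the collagen genes and named from marker lists, so a difference from the study may come from the rebuilt names. DCN, a fibroblast proteoglycan, stood at 14738 to 31421 CPM (UMIs of a gene for each 1000000 UMIs of a class in a library) in the fibroblast-like cells and at 193 to 1648 CPM in the other cells, and the other classes also carried their defining markers. The main classes were 8718 fibroblast-like cells, 5436 endothelial-like cells, 2082 smooth muscle and pericyte cells, 1532 epithelial-like, 1429 macrophage-like, 1191 T cell-like and 115 glia-like cells. Normal_1 stood apart from the other 3 libraries in depth and in its low COL1A1, and differences that moved most without it are also given that way.

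Of the 27 collagens, 26 had at least 1 UMI, and COL9A1, a cartilage collagen, had none. The fibrillar genes took 5386944 UMIs, or 93.0% of all collagen UMIs, the basement membrane genes 121338 (2.10%) and the others 282588 (4.88%). COL1A2 and COL3A1, chains of types I and III, had 2253180 and 2238451 UMIs, COL1A1 868184, COL14A1 233997, COL4A2 72959 and COL12A1 35365. COL11A2 had 178 UMIs in all, COL17A1 46, COL6A6 38 and COL9A2 11. Counts are from the 3′ end of transcripts, so these totals and shares describe the counts and do not compare levels between genes.

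**Figure D1:**
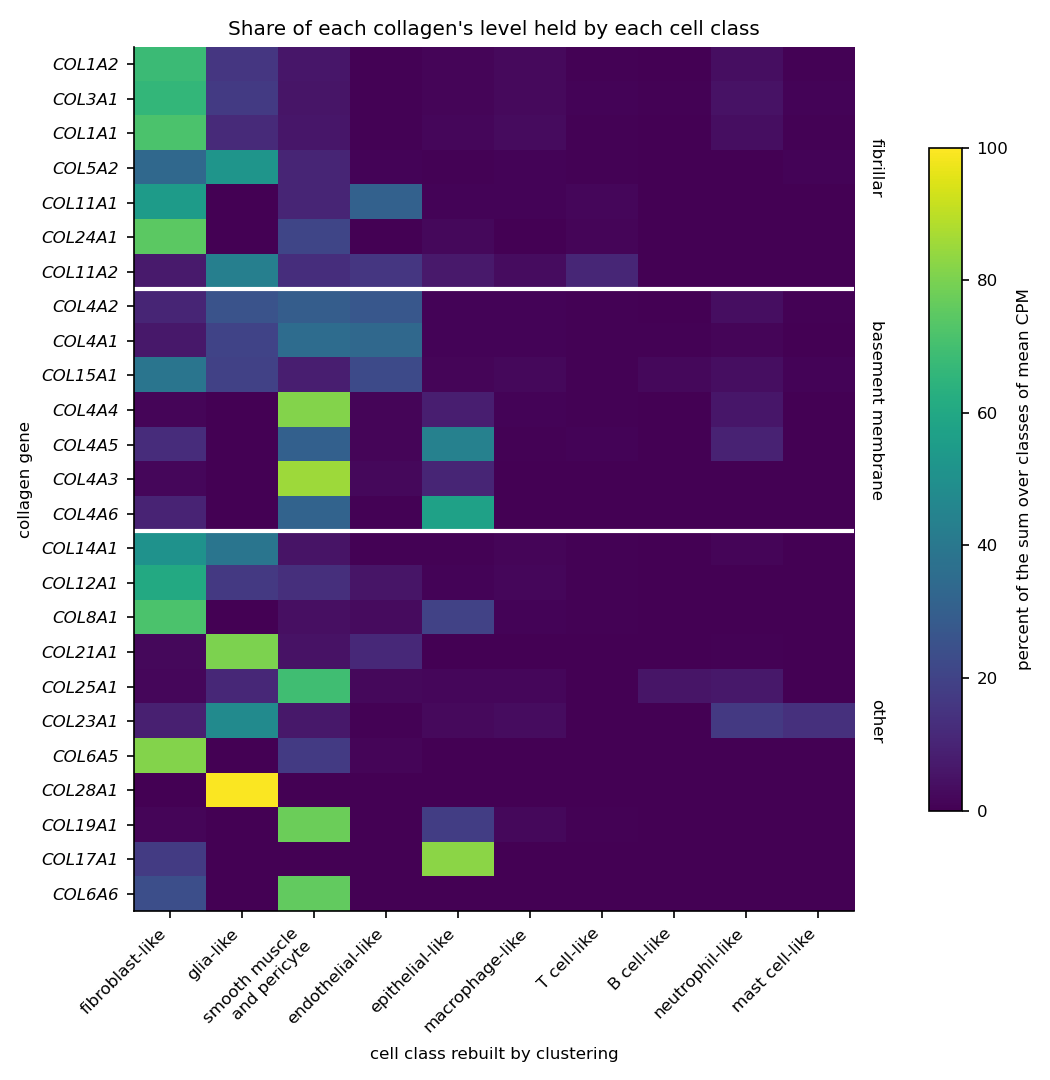
Share of each collagen gene's mean CPM found in each of 10 cell classes, in percent of the gene's summed class means, for the 25 genes with at least 30 UMIs. Rows are genes grouped by collagen class and columns are cell classes, with lighter cells for larger shares. COL28A1 stands in glia-like cells (99.5%), COL4A3 and COL4A4 in the smooth muscle and pericyte class (85.3% and 81.5%), and most fibrillar genes in fibroblast-like cells.

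The source of the transcripts differed between the classes of collagen. Fibroblast-like cells held 91.8% ± 3.98 (SD, n = 4 libraries) of the COL1A2 UMIs, 91.8% ± 3.77 of COL3A1, 91.3% ± 4.46 of COL1A1 and 92.2% ± 2.50 of COL14A1. They also held most of COL5A2 (86.0%), COL24A1 (86.3%), COL12A1 (82.2%), COL6A5, a chain of a beaded filament collagen (81.3%), and COL8A1 (75.8%). Of COL15A1, a basement membrane gene, they held 66.9% ± 9.43, and of COL23A1 66.7% ± 16.4. The smooth muscle and pericyte class held 71.3% ± 13.7 of COL4A4, 69.8% ± 18.9 of COL4A3, 62.8% of COL25A1, a transmembrane collagen, and 60.3% of COL19A1. Endothelial-like cells held 62.3% ± 3.80 of COL21A1, a fibril-associated collagen, 56.0% ± 13.0 of COL4A1 and 46.4% ± 13.3 of COL4A2, where in Injury_2 fibroblast-like cells held more of COL4A2 (38.6% against 33.8%). Glia-like cells, 115 in number, held 78.5% ± 5.88 of COL28A1. Epithelial-like cells held 71.3% ± 36.9 of COL17A1, 53.7% ± 14.5 of COL4A6 and 44.3% ± 22.1 of COL4A5, with a wide spread. Of the COL17A1 UMIs, 46 in all, fibroblast-like cells held 77.3% in Injury_2, and of COL4A5 they held 66.2% in Normal_2 and 37.4% in Injury_2, more than the epithelial-like cells there. Fibroblast-like cells also held more of COL4A6 in Normal_2 (44.1% against 40.7%). These shares depend on how many cells of each class a library held as well as on the level per cell.

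Several pairs of collagens had near the same order across 17 cell groups. Spearman's rho over the groups' mean CPM was 0.998 for COL4A1 with COL4A2, 0.988 for COL1A1 with COL1A2 and 0.930 for COL4A3 with COL4A4, pairs that share a trimer. COL1A2 with COL3A1, which do not, reached 0.985, and COL4A5 reached 0.615 with its nearest gene, COL4A4. COL12A1 was most like COL24A1 (0.844), and COL14A1 was most like COL1A1 (0.912). These values describe the pattern over groups that share libraries. In the RefSeq annotation of assembly mOryCun1.1 the genes COL4A1 and COL4A2 are neighbours, as are COL4A3 and COL4A4, COL3A1 and COL5A2, and COL6A5 and COL6A6.

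Collagens took 3.82% of all UMIs of the fibroblast-like cells in Normal_1, 6.96% in Normal_2, 7.94% in Injury_1 and 10.2% in Injury_2. Fibrillar genes made up most of it, at 3.42%, 6.47%, 7.52% and 9.79%, while basement membrane genes took 0.0443% to 0.0679%. In the smooth muscle and pericyte class fibrillar genes took 0.137%, 0.676%, 0.644% and 0.945% and basement membrane genes 0.0894%, 0.150%, 0.215% and 0.215%. A sub-cluster of 150 of these cells, led by DPT, OGN and DCN and with high doublet scores in 26.0%, held 13698 of the 28033 COL1A2 UMIs of the class, and the fibrillar share of the 4 largest sub-clusters was 0.0726% to 0.666%. In endothelial-like cells basement membrane genes took 0.0903%, 0.174%, 0.133% and 0.187% and fibrillar genes 0.0153%, 0.0859%, 0.0377% and 0.0815%. Both injured samples lay above both normal samples in the fibrillar share of all fibroblast-like cells. The sub-clusters of these cells, named by their leading genes, differed: the fibrillar share was 6.08%, 9.35%, 9.08% and 12% in the MYOC sub-cluster, 2.60%, 5.74%, 5.18% and 6.18% in the DPP10 sub-cluster and 1.90%, 5.30%, 3.74% and 4.77% in the MMP3 sub-cluster, with overlapping groups in each of these 3. It was 4.56%, 7.84%, 10.1% and 14.1% in the ADH6 and 2.23%, 4.40%, 6.25% and 8.59% in the APOD sub-cluster, without overlap. The MYOC sub-cluster made up 18.1% and 15.9% of fibroblast-like cells in the normal and 39.2% and 36.0% in the injured samples, and its part in the class share was not tested. The basement membrane share of all endothelial-like cells overlapped between the groups. In the 4 largest endothelial sub-clusters, named by a leading gene or by markers, it did not: it was 0.167%, 0.241%, 0.243% and 0.313% in the ESM1 sub-cluster, 0.0385%, 0.0780%, 0.0808% and 0.109% in the SELP sub-cluster, 0.0432%, 0.0563%, 0.126% and 0.164% in the arterial-like sub-cluster and 0.0319%, 0.0636%, 0.0919% and 0.127% in the NT5E sub-cluster. The ESM1 sub-cluster made up 42.5% and 61.5% of the class in the normal and 32.7% and 37.0% in the injured samples, and the part of these shares in the class values was not tested.

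**Figure D2:**
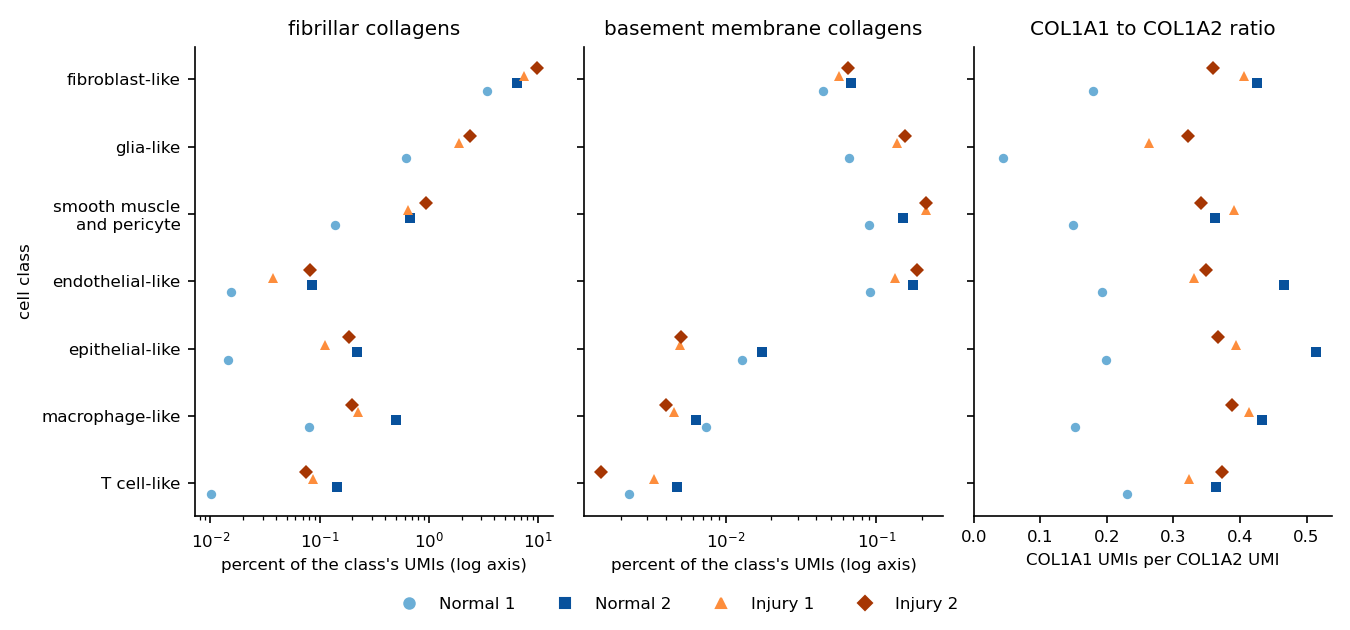
Left and middle, percent of a class's UMIs from fibrillar and from basement membrane collagen genes (log axis), and right, the ratio of COL1A1 to COL1A2 UMIs, for 7 cell classes. Each point is 1 library, coloured by group. The fibrillar share of fibroblast-like cells runs from 3.42% to 9.79%, and Normal_1 is the library with the lowest COL1A1 to COL1A2 ratio in each class.

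A low fibrillar collagen signal was also found in cells that should not make it, and it was lowest in Normal_1. In T cell-like cells COL1A2 stood at 36.8, 454, 356 and 306 CPM in Normal_1, Normal_2, Injury_1 and Injury_2, and COL3A1 at 53.7, 824, 399 and 335 CPM. A UMI of COL1A2 was found in 42.7% of T cell-like cells, or in 14.9% once each cell was thinned to 1000 UMIs. The COL1A1 to COL1A2 ratio was 0.179, 0.425, 0.406 and 0.359 in fibroblast-like cells and 0.231, 0.364, 0.323 and 0.374 in T cell-like cells. In endothelial-like cells it was 0.193, 0.466, 0.331 and 0.348, and in epithelial-like cells 0.198, 0.515, 0.394 and 0.367. Normal_1 was lowest in each of these classes. In endothelial-like cells COL1A2 stood at 60.9, 340, 143 and 301 CPM, above the T cell-like level in Normal_1 and under it in the other 3 libraries. Of the 7773 COL1A2 UMIs of endothelial-like cells 4191 came from a sub-cluster of 64 cells led by DCN, OGN and LUM. The mean COL1A2 level was 557 CPM in epithelial-like and 1057 CPM in macrophage-like cells. Of the 4414 COL1A1 UMIs of epithelial-like cells 3616 came from the sub-cluster of 84 cells that was led by DCN.

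For other genes the signal stood above that background. At 1000 UMIs a cell, COL14A1 was detected in 91.7% of fibroblast-like cells (median 7193.5 UMIs before thinning) and in 1.70% of T cell-like cells (median 3378). COL4A2 was detected in 50.9% of the smooth muscle and pericyte class, 45.9% of endothelial-like cells and 1.26% of T cell-like cells. COL4A1 was detected in 30.8% of endothelial-like cells and COL4A4 in 11.9% of the smooth muscle and pericyte class. COL28A1 was detected in 31.5% of glia-like cells and COL12A1 in 27.0% of fibroblast-like cells. Unthinned, the shares were 99.8% for COL14A1, 71.3% for COL4A1, 35.6% for COL4A4 and 63.5% for COL28A1 in the same classes. COL4A1, COL4A4, COL12A1 and COL28A1 averaged 488, 127, 431 and 510 CPM in these classes. In T cell-like cells the 4 genes averaged 7.37, 0.660, 4.82 and 0.0843 CPM.

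In fibroblast-like cells, the class that makes most of the fibrillar collagen, no collagen passed the test between injured and normal samples. Of 27 members, 21 had enough counts to be tested in edgeR, with p-values adjusted by Benjamini-Hochberg over all genes tested (adjusted p), and 0 were called at an adjusted p under 0.05. In this class 0% of all 8731 genes were called. At an unadjusted p under 0.05 there were 6 collagens, against 10.6% of all genes, and DESeq2 called 1, COL12A1, where it called 2.7% of all genes. Of the 21, 10 had a higher and 11 a lower fitted level in the injured samples, with a median log2 fold change of -0.05 against 0.00 over all genes. In 7 members both injured samples lay above both normal samples, against 15.4% of all genes. In 7 both lay below, against 27.9% of all genes. Log2 fold changes are injured against normal with TMM scaling, and CPM are per total UMIs of the class.

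By collagen class, none of which held a called gene, the directions were mixed. Of 7 fibrillar genes 5 were higher (median log2 fold change 0.67), of 7 basement membrane genes 5 were lower (-0.25), and of 7 others 4 were lower (-0.87). COL3A1 stood at 15259, 25456, 31451 and 42071 CPM in Normal_1, Normal_2, Injury_1 and Injury_2, a log2 difference of 0.96 ± 0.34 (SE, adjusted p = 0.418). COL1A2, the second chain of type I collagen, stood at 15894, 27322, 30847 and 40795 CPM, a difference of 0.83 ± 0.35 (adjusted p = 0.494). The groups did not overlap in either gene, and the normal samples lay far apart. The COL3A1 difference was 0.59 without Normal_1 and 1.46 without Normal_2, and that of COL1A2 0.45 and 1.36. COL1A1 stood at 2848, 11615, 12526 and 14653 CPM, with Normal_1 far below the other 3, and a difference of 0.99 ± 0.66 (adjusted p = 0.684). Without Normal_1 the COL1A1 difference was 0.29, and without Normal_2 it was 2.44 with an adjusted p of 0.0334, so this gene's value rested on which normal animal was kept. COL5A2, a chain of the type V collagen that sets fibril diameter, stood at 211, 306, 372 and 388 CPM, a difference of 0.67, or 0.37 without Normal_1.

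COL12A1 (ENSOCUG00000015320), whose product binds fibril surfaces, was the collagen that DESeq2 called in fibroblast-like cells, while in edgeR COL24A1 and COL4A3 had smaller adjusted p-values. It stood at 463 and 914 CPM in the normal samples and at 130 and 217 CPM in the injured samples, and the groups did not overlap. The log2 difference was -1.89 ± 0.47 (unadjusted p = 0.00835, adjusted p = 0.272 in edgeR, 0.00193 in DESeq2). COL14A1, the related fibril-associated collagen, stood at 2970, 3079, 3422 and 3481 CPM, a difference of 0.31 with close replicates. COL24A1, a minor fibrillar collagen, stood at 5.58, 8.13, 1.64 and 2.10 CPM, a difference of -1.78 ± 0.38 (adjusted p = 0.223). COL23A1, a transmembrane collagen, stood at 8.98, 4.99, 3.60 and 2.85 CPM (-0.95, adjusted p = 0.471). COL6A5 went the other way, at 0.310, 2.62, 3.54 and 10.3 CPM (2.11 ± 0.88, adjusted p = 0.492), a difference of 1.47 without Normal_1 and 4.64 without Normal_2. COL8A1 overlapped between groups, at 92.2, 172, 33.2 and 102 CPM (-0.87).

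The COL4A1 and COL4A2 levels of fibroblast-like cells were below those of the smooth muscle and pericyte class and of endothelial-like cells. COL4A1 stood at 89.7, 126, 72.6 and 95.8 CPM and COL4A2 at 223, 407, 343 and 404 CPM, with overlapping groups in both. COL15A1 had its highest class mean here, 133 ± 14.7 CPM, at 114, 130, 146 and 144 CPM (0.36). COL4A5 averaged 7.90 CPM, above the 0.926 CPM of endothelial-like cells. It was below the normal level in both injured samples, at 11.5, 11.3, 2.97 and 5.84 CPM (-1.24 ± 0.39, edgeR adjusted p = 0.366), as was COL4A3 (-2.80 ± 0.68, adjusted p = 0.260).

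**Figure D3:**
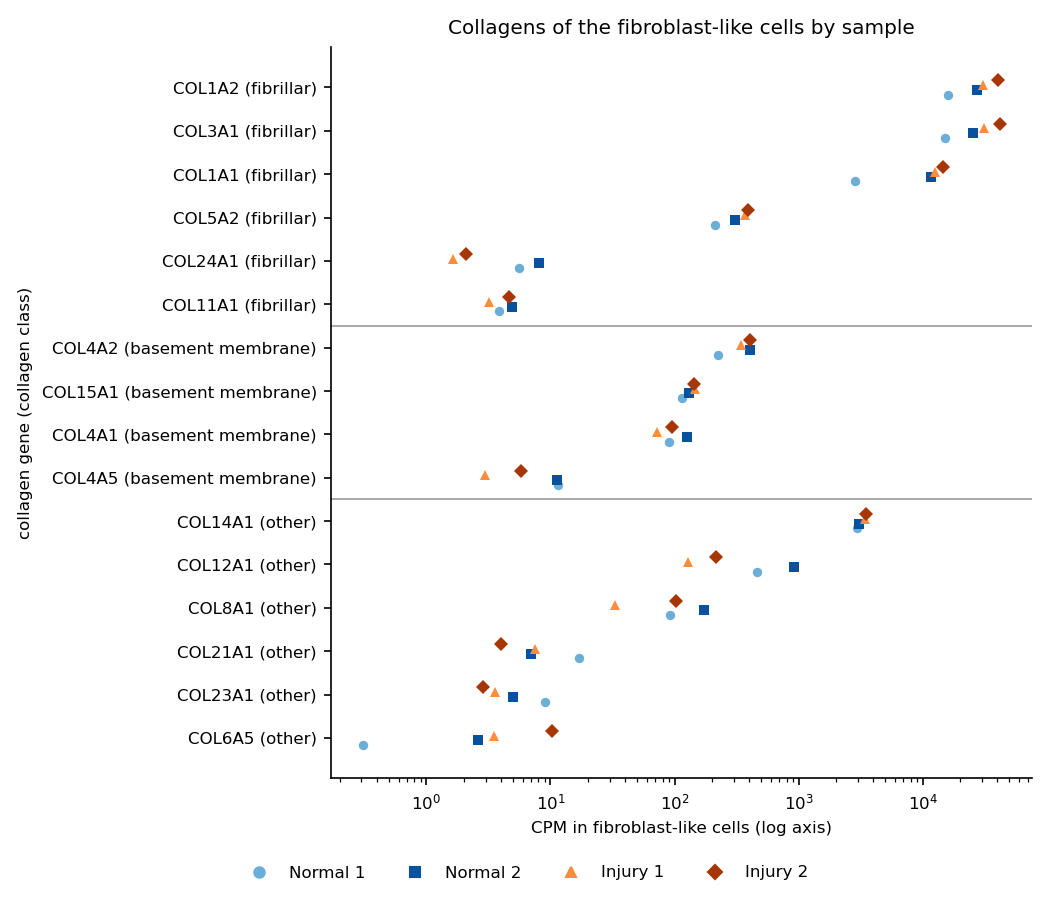
Level of 16 collagen genes in fibroblast-like cells, in CPM on a log axis, with 1 point for each of the 4 libraries and colour for the group. COL12A1 in both injured samples (130 and 217 CPM) lies below both normal samples (463 and 914 CPM), while COL14A1 lies between 2970 and 3481 CPM in all 4.

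The fibroblast-like cells split into sub-clusters that differed in collagen levels, each given here by its leading genes. COL12A1 was highest in the MMP3, MMP10, PTPRQ and WIF1 sub-cluster, at 1326 and 1716 CPM in the normal and 572 and 883 CPM in the injured samples. The DPP10, PTN and THBS4 sub-cluster followed at 525, 1197, 287 and 380 CPM. The other 3 of the 5 main sub-clusters lay far lower: the MYOC and SFRP2 sub-cluster at 50.4, 66.6, 30.9 and 40.2 CPM, the ADH6 and CYP4B1 sub-cluster at 74.7, 150, 27.5 and 38.0, and the APOD and CP sub-cluster at 78.0, 140, 55.8 and 74.2. In each of the 5 the COL12A1 level of both injured samples was below that of both normal samples. In the MMP3 sub-cluster the log2 difference was -1.16 ± 0.33 (edgeR, adjusted p = 0.344). That sub-cluster made up 21.1% and 28.3% of the fibroblast-like cells in the normal and 8.58% and 12.6% in the injured samples, and the part of these shares in the class difference was not tested.

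Other collagens also divided the fibroblast-like cells. COL1A1 averaged 13731 ± 5769 CPM (SD, n = 4) in the MYOC and SFRP2 sub-cluster and 13669 ± 7132 in the ADH6 and CYP4B1 sub-cluster, against 6826 ± 3551 in the MMP3 sub-cluster. COL14A1 was more even, from 2503 ± 194 CPM in the APOD sub-cluster to 3977 ± 441 in the DPP10 sub-cluster. COL8A1 was at 258, 279, 220 and 503 CPM in the MMP3 sub-cluster and at 1.97, 4.07, 0.396 and 17.1 CPM in the APOD sub-cluster. The COL8A1 values of the groups stood in opposite order in 2 sub-clusters, with no call in either: in the MYOC sub-cluster it was 9.16, 18.2, 22.8 and 56.3 CPM, and in the DPP10 sub-cluster 129, 263, 24.4 and 72.3 CPM. The difference between these sub-clusters was not tested. COL11A1 was highest in the MMP3 sub-cluster, at 8.77, 11.9, 15.9 and 26.6 CPM.

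No collagen was called within a sub-cluster of the fibroblast-like cells. The tests covered 14, 16, 15, 11 and 11 members in the MYOC, DPP10, MMP3, ADH6 and APOD sub-clusters, with 0 called in each by edgeR, and 4, 3, 4, 5 and 6 at an unadjusted p under 0.05. DESeq2 was not run on them. Of all genes 0.291%, 0.105%, 0.289%, 0% and 0.596% were called, and 10.4%, 8.28%, 9.05%, 7.29% and 14.6% were at an unadjusted p under 0.05. The member nearest to a call was COL6A5 in the MMP3 sub-cluster, at 0.674 and 2.50 CPM in the normal and 26.4 and 31.9 CPM in the injured samples (3.76 ± 0.52, adjusted p = 0.0700). In the same cells COL4A5 was 42.5, 30.6, 9.07 and 9.54 CPM (-2.05, adjusted p = 0.123).

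The injury difference of COL12A1 was set against that of the other stromal classes in 1 model. COL12A1 stood at 53.4, 129, 74.9 and 121 CPM in the smooth muscle and pericyte class and at 19.3, 55.2, 41.1 and 48.2 CPM in endothelial-like cells, with overlapping groups in both. The difference of the log2 fold changes was -2.04 ± 0.21 against the smooth muscle and pericyte class (unadjusted p = 2.92e-05, adjusted p = 0.0569) and -2.17 ± 0.30 against endothelial-like cells (7.62e-05, adjusted p = 0.0529). Both lay just outside the threshold. Of 21 members tested in each contrast edgeR called 0, with 6 in each at an unadjusted p under 0.05, and DESeq2 called 2 and 1. Of all genes edgeR called 0.0129% against the smooth muscle and pericyte class and 0.0682% against endothelial-like cells, 9.41% and 9.89% were at an unadjusted p under 0.05, and DESeq2 called 0.821% and 0.873%.

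The type IV chains were spread over several classes. COL4A1 averaged 512 ± 194 CPM in the smooth muscle and pericyte class and 488 CPM in endothelial-like cells, which did not differ beyond their spread, and 293 CPM in glia-like cells. COL4A2 averaged 959, 894 and 834 CPM in these 3 classes, within their spread. COL4A3 and COL4A4 averaged 23.7 ± 3.26 and 127 ± 23.7 CPM in the smooth muscle and pericyte class, against 2.83 and 13.1 CPM in epithelial-like cells, the next class. COL4A5 and COL4A6 averaged 27.5 and 5.70 CPM in epithelial-like cells against 19.3 and 3.18 CPM in the smooth muscle and pericyte class, within their spread, and in Injury_2 COL4A5 was 17.6 against 23.5 CPM. In the injured against the normal samples the COL4A1 level of the smooth muscle and pericyte class was 624 and 719 against 299 and 405 CPM, a log2 difference of 0.94 ± 0.27 (edgeR, adjusted p = 0.399). COL4A2 was 1322 and 1202 against 434 and 879 CPM (0.94 ± 0.38, adjusted p = 0.520), a difference of 0.49 without Normal_1 and 1.61 without Normal_2 (adjusted p = 3.93e-06). COL4A4 was 117 and 149 against 97.5 and 143 CPM (0.15), and COL4A3 22.6 and 19.6 against 26.7 and 25.8 CPM (-0.30). The groups did not overlap in COL4A1, COL4A2 and COL4A3, and they overlapped in COL4A4.

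Pericyte-like cells, named from 4 of their 5 markers, held the highest type IV levels of the class. There COL4A1 stood at 894, 1000.1, 1522 and 1803 CPM in Normal_1, Normal_2, Injury_1 and Injury_2, COL4A2 averaged 2255 ± 682 CPM, and COL4A4 stood at 205, 322, 311 and 436 CPM. COL4A6 had no UMI in these cells. The RERGL and SORBS2 sub-cluster of the same class held COL4A6 at 10.8, 8.63, 4.67 and 6.63 CPM and COL4A5 at 26.5, 31.6, 32.7 and 41.1 CPM. The COL4A1 level of both injured samples lay above that of both normal samples in each of the 4 largest sub-clusters of the class.

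**Figure D4:**
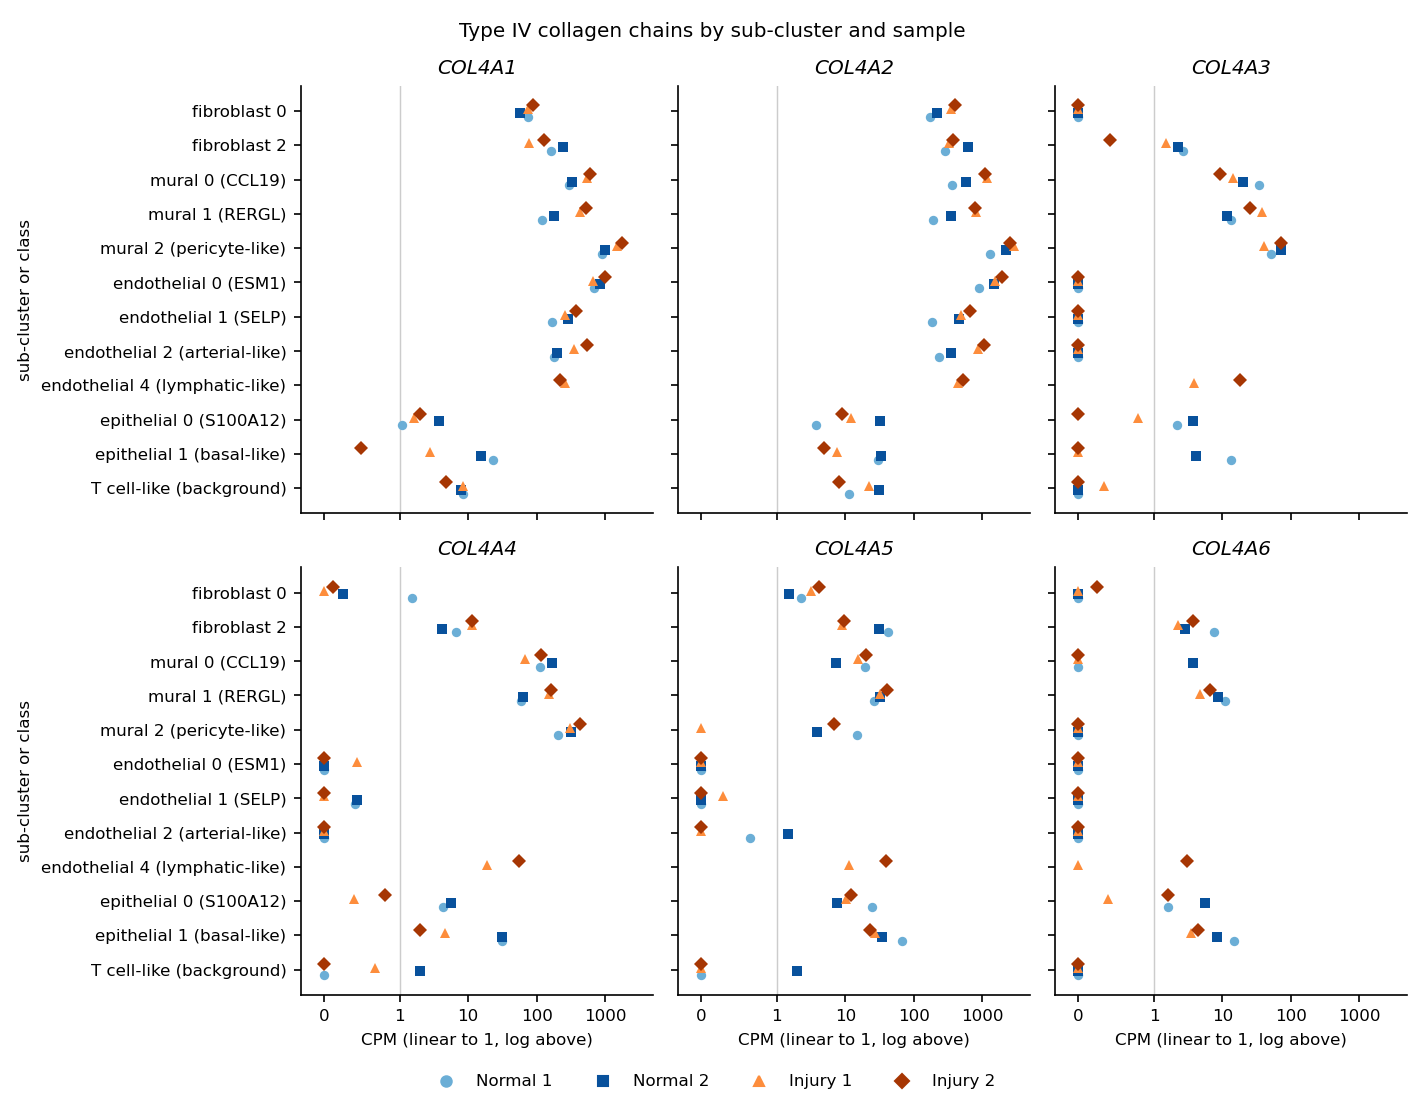
Level of COL4A1 to COL4A6 in 12 cell classes and sub-clusters, in CPM on an axis that is linear near 0 and logarithmic above, with 1 point per library coloured by group. COL4A1 and COL4A2 are high in pericyte-like cells and the ESM1 endothelial sub-cluster, COL4A3 and COL4A4 in pericyte-like cells, and COL4A5 reaches 66.5 CPM in the basal-like cells of Normal_1.

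Over the smooth muscle and pericyte class 16 collagens were tested and edgeR called 0, as did DESeq2, with 5 at an unadjusted p under 0.05. In this class 0% of all 6421 genes were called by edgeR and 0.584% by DESeq2, and 9.45% were at an unadjusted p under 0.05. Of the 16, 13 were higher in the injured samples, with a median log2 fold change of 0.86 against -0.01 over all genes. The make-up of the class differed between the groups: the CCL19 sub-cluster was 26.3% and 26.3% of it in the normal and 44.0% and 41.5% in the injured samples, the RERGL sub-cluster 49.2% and 30.6% against 21.1% and 22.8%, the BTG2 sub-cluster 4.81% and 7.76% against 18.5% and 17.3%, and the pericyte-like cells 17.2% and 20.3% against 10.4% and 11.2%. The part of these shares in the class values was not tested. In 7 both injured samples lay above both normal samples, against 20.7% of all genes. COL21A1 was 32.0 and 25.1 against 13.7 and 11 CPM (1.23 ± 0.30, adjusted p = 0.342), and COL5A2 113 and 142 against 57.8 and 81.2 CPM (0.88 ± 0.29, adjusted p = 0.435). COL19A1, a fibril-associated collagen, went the other way at 3.48 and 5.54 against 28.6 and 12.7 CPM (-2.12 ± 0.50, adjusted p = 0.338). COL25A1, highest in this class, overlapped at 57.1, 18.6, 21.2 and 34.2 CPM in Normal_1, Normal_2, Injury_1 and Injury_2. COL1A1 stood at 86.9, 1039, 1077 and 1381 CPM and the summed fibroblast markers of the class at 597, 3238, 2406 and 3236 CPM, both lowest in Normal_1, and the part of fibroblast RNA in these values was not tested. Without Normal_2, which leaves Normal_1 as the lone control, the COL1A1 log2 difference was 3.90, and without Normal_1 it was 0.21.

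In endothelial-like cells 15 collagens were tested and edgeR called 0, with 1 at an unadjusted p under 0.05, and DESeq2 called 1. In this class 0% of all 7553 genes were called by edgeR and 0.699% by DESeq2, and 6.91% were at an unadjusted p under 0.05. Of the 15, 10 were higher in the injured samples (median 0.24 against -0.01), and in 4 both injured samples lay above both normal samples, against 24.2% of all genes. The gene at an unadjusted p under 0.05 was COL11A1, a minor fibrillar chain, at 0.617 and 0.243 CPM in the normal and 3.46 and 5.12 CPM in the injured samples (3.24 ± 0.59, adjusted p = 0.545 in edgeR and 0.0464 in DESeq2). COL4A1 stood at 368, 595, 388 and 602 CPM, a difference of -0.07 ± 0.38, and COL4A2 at 479, 1079.7, 849 and 1169 CPM (0.24), with overlapping groups in the class. In the SELP and NT5E sub-clusters COL4A2 stood at 188, 457, 494 and 662 CPM and at 168, 412, 590 and 802 CPM, with no overlap. COL4A1 overlapped in the SELP sub-cluster, at 166, 290, 259 and 373 CPM. COL15A1, a proteoglycan-type collagen of vessel basement membranes, stood at 55.3, 65.0, 95.7 and 91.1 CPM (0.54 ± 0.24). The groups did not overlap in COL15A1.

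Within the endothelial-like cells, the ESM1 sub-cluster held the highest COL4A1 level, at 687, 834, 677 and 1004 CPM, and COL15A1 at 97.7, 88.2, 203 and 168 CPM. COL21A1 in these cells was 54.5, 44.1, 126 and 109 CPM (1.16, adjusted p = 0.313 in edgeR). The arterial-like sub-cluster, named from 4 of 5 markers, had lower COL4A2 at 236, 349, 860 and 1055 CPM, a log2 difference of 1.58. COL12A1 there was 13.6, 26.3, 86.0 and 107 CPM (2.15 ± 0.40, adjusted p = 0.236). In both genes the injured samples lay above the normal ones. Lymphatic-like cells, named from 4 of 4 markers, were numerous enough for a level in the injured samples and held COL4A3 at 3.82 and 18.3 CPM, COL4A4 at 19.1 and 55.0 and COL4A5 at 11.5 and 39.7. The ESM1 sub-cluster had no UMI of COL4A3 or COL4A5. Of these lymphatic-like cells 22.1% had high doublet scores.

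In epithelial-like cells 2 type IV chains, COL4A4 and COL4A1, passed the test, both lower in the injured samples. The basal-like sub-cluster was led by F3, LAMB3 and KRT5. It made up 42.4% and 48.8% of these cells in the normal and 26.1% and 28.2% in the injured samples. Within it 2 of 6 basal markers tested, LAMB3 and ITGA2, were called lower in the injured samples. KRT5 and TP63 overlapped between the groups there. The part of these shares and markers in the class values was not tested. Of 15 collagens tested edgeR called 2, COL4A4 and COL4A1, both lower, where 1.04% of all genes were called lower. DESeq2 called 4, where it called 6.79% of all genes, and 9 were at an unadjusted p under 0.05, against 20.5% of all genes. COL4A4 (ENSOCUG00000007286) stood at 19.3 and 28.5 CPM in the normal and 2.62 and 1.78 CPM in the injured samples, and fell by 3.69 ± 0.45 on the log2 scale (adjusted p = 0.0299). COL4A1 (ENSOCUG00000013232) stood at 18.8 and 21.2 against 2.62 and 4.09 CPM, and fell by 2.83 ± 0.41 (adjusted p = 0.0418). The groups did not overlap in either gene. On simulated counts for this class 18 of 103 calls at the same threshold were false. In 9 members both injured samples lay below both normal samples, against 15.6% of all genes, and the median log2 fold change of the 15 was -1.33 against 0.00 over all genes.

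Other chains had values in the same direction without a call. COL4A2 stood at 23.3, 75.6, 18.7 and 19.2 CPM (-1.69 ± 0.62, adjusted p = 0.205), with Normal_1 near the injured samples and Normal_2 far above. Of its 595 UMIs, 313 came from the sub-cluster of 84 cells led by DCN. COL4A3 stood at 7.78, 2.98, 0.551 and 0 CPM (adjusted p = 0.0790), COL4A6 at 9.67, 7.96, 1.79 and 3.38 CPM (-2.01, adjusted p = 0.0953) and COL4A5 at 45.7, 26.5, 19.97 and 17.6 CPM (-1.17, adjusted p = 0.103). COL17A1, the hemidesmosome collagen, stood at 2.66, 0.663, 0.689 and 0.890 CPM on 26 UMIs and was not tested. COL4A1 in T cell-like cells, as a background, was 8.48, 7.87, 8.43 and 4.69 CPM, above the injured epithelial level, and COL4A4 there was 0, 1.97, 0.674 and 0 CPM. The calls of both genes were lost with at most 10% mitochondrial UMIs a cell (adjusted p = 0.0530 for COL4A4 and 0.0849 for COL4A1) and with the replicate number as a block (0.0567 for both), and that of COL4A1 without Injury_1 (0.112). Of the 205 COL4A1 UMIs of this class 89 came from a sub-cluster of 84 cells led by DCN and other fibroblast genes, in which 41.7% had high doublet scores.

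Within the basal-like cells of the epithelium COL4A4, COL4A1 and COL4A2 were called lower in the injured samples, with a COL4A4 difference close to that of the class. This sub-cluster was led by F3, LAMB3 and KRT5, was named from 4 of 6 basal markers, and held 187, 83, 148 and 100 cells in Normal_1, Normal_2, Injury_1 and Injury_2. Its test was added after the class result was seen. Of 10 collagens tested edgeR called 4, all lower, where 3.88% of all genes were called lower. DESeq2 called 5, where it called 7.34% of all genes, and at an unadjusted p under 0.05 there were 6, against 26.9% of all genes. In 6 members both injured samples lay below both normal samples, against 14.1% of all genes.

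COL4A4 stood at 31.6 and 31.7 CPM in the normal and 4.53 and 1.98 CPM in the injured basal-like cells, and fell by 3.58 ± 0.44 on the log2 scale (edgeR, adjusted p = 0.00795). COL4A2 stood at 30.1 and 33.5 against 7.66 and 4.95 CPM, and fell by 2.67 ± 0.38 (adjusted p = 0.0140). In T cell-like cells COL4A2 was 11.3, 31.5, 22.6 and 8.22 CPM, so that the level of Normal_2 was near this background and both injured levels were below it. COL4A1 stood at 23.4 and 15.3 against 2.79 and 0.495 CPM, and fell by 3.78 ± 0.60 (adjusted p = 0.0174). The groups did not overlap in these 3 chains. COL8A1, the network collagen, stood at 53.9 and 57.0 against 29.3 and 18.3 CPM, and fell by 1.58 ± 0.30 (adjusted p = 0.0248). COL4A5 stood at 66.5, 34.7, 27.5 and 23.2 CPM (-1.34 ± 0.34) and COL4A6 at 14.9, 8.22, 3.48 and 4.45 CPM (-1.91 ± 0.48), both at an adjusted p of 0.0551. COL3A1 in the same cells stood at 17.5, 118, 145 and 139 CPM, lowest in Normal_1 as in T cell-like cells.

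The call of COL4A4 and that of COL4A2 held without each animal in turn. COL4A1 lost its call without Normal_1 (adjusted p = 0.0549), and COL8A1 without Injury_1 (0.0594), without Injury_2 (0.197) and with library size without collagen UMIs in place of TMM (0.0684). Markers of other kinds moved with the groups in these cells. Of the 6 basal markers tested 2 were called lower: LAMB3, a laminin chain, at 359, 502, 43.9 and 25.7 CPM and ITGA2, a collagen receptor chain, at 268, 179, 59.9 and 49.0 CPM. KRT5 stood at 335, 162, 81.5 and 338 CPM and TP63 at 19.7, 18.8, 16.7 and 31.7. The umbrella cell gene UPK3B stood at 4.46, 2.35, 79.1 and 26.7 CPM. The mast cell list, led by KIT, was summed at 23.8, 20.6, 2.44 and 0 CPM, with 2 of its 5 genes at 0. The fibroblast list was summed at 16.4, 156, 149 and 108 CPM, and the part of these markers in the collagen values was not tested.

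**Figure D5:**
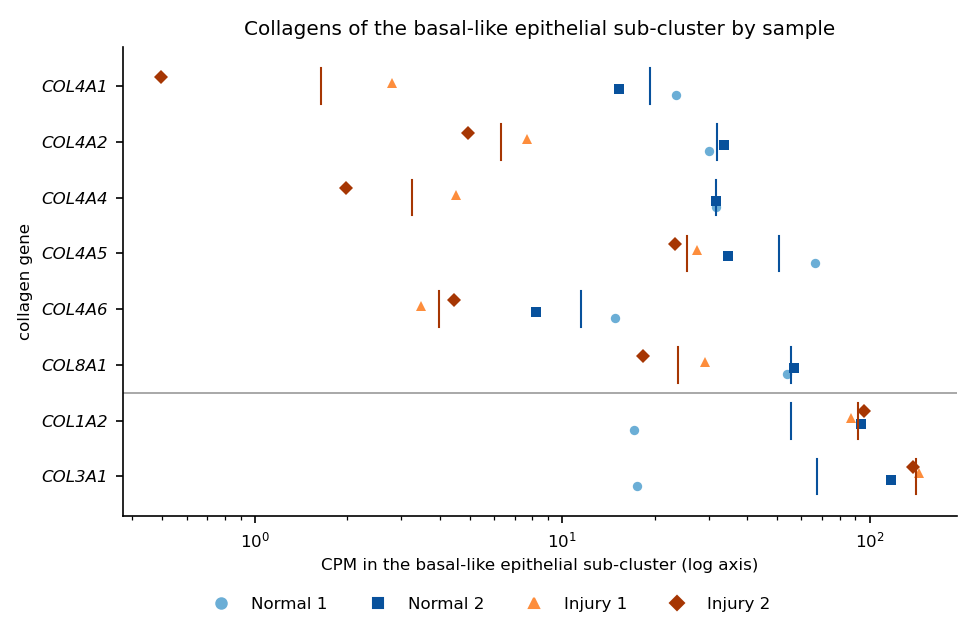
Level of 8 collagen genes in the basal-like epithelial sub-cluster, in CPM on a log axis, with 1 point per library and a vertical bar at each group's mean. COL4A4, COL4A2, COL4A1 and COL8A1 lie lower in both injured samples than in both normal samples, while COL1A2 overlaps and COL3A1 is lowest in Normal_1 (17.5 CPM).

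In the S100A12 and PIGR sub-cluster of the epithelium COL8A1 stood at 2.68 and 1.88 CPM in the normal and 16.7 and 10.4 CPM in the injured samples (2.35, edgeR adjusted p = 0.167), and its difference from the basal-like sub-cluster was not tested. COL4A4 in these cells was 4.29, 5.65, 0.398 and 0.801 CPM on 14 UMIs. COL17A1 had no UMI in them, while the basal-like cells held it at 5.20, 1.18, 1.04 and 1.98 CPM.

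Among the named classes, glia-like cells held the highest mean of COL28A1, COL21A1, COL23A1 and COL5A2. Normal_2 held 7 of these cells and was left out, so levels are given for 3 libraries with no test. COL28A1, a von Willebrand domain collagen known from peripheral glia, stood at 815 CPM in Normal_1, 443 in Injury_1 and 273 in Injury_2, against 1.45 CPM in epithelial-like cells, the next class. COL21A1 stood at 596, 240 and 216 CPM, COL23A1 at 15.7, 44.3 and 22.0, and COL5A2 at 454, 493 and 532 CPM. COL14A1 stood at 2962, 1884 and 2617 CPM, below the lowest fibroblast-like level of 2970 CPM. COL4A1 stood at 125, 341 and 413 CPM and COL4A2 at 502, 955 and 1047 CPM, lowest in the normal library. The COL1A1 to COL1A2 ratio of these cells was 0.0443, 0.263 and 0.322, again lowest in Normal_1.

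A cluster led by COCH, ASPN and ACTG2 held 71 and 92 cells in the injured samples, 6 in Normal_2 and 0 in Normal_1, and was given no cell type name. It held 65.8% and 58.0% of all COL11A1 UMIs of the injured samples. COL11A1, one of its leading genes, stood at 254 and 169 CPM there, against 3.22 and 4.65 CPM in the fibroblast-like cells of the same samples. COL1A1 stood at 16502 and 17491 CPM, COL3A1 at 35666 and 39130 CPM, COL5A2 at 644 and 583 CPM, above the glia-like level, and COL8A1 at 118 and 346 CPM. Collagens took 9.26% and 10.3% of its UMIs, against 7.94% and 10.2% in the fibroblast-like cells of the same samples. With too few normal cells there is no comparison between groups.

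Genes that process collagen were described from 6 lists by role. In fibroblast-like cells 14 genes of hydroxylation, glycosylation and folding, 6 of export, 4 of propeptide removal, 4 of cross-linking, 6 of receptors and uptake and 6 of degradation were tested, and edgeR called 0 in either direction. PCOLCE, an enhancer of procollagen C-terminal cleavage, stood at 788, 1052, 2335 and 2119 CPM (log2 difference 1.39 ± 0.28, adjusted p = 0.204); this gene and the next were picked after their values were seen. PLOD2, a lysyl hydroxylase that shapes collagen cross-links, stood at 31.4, 55.5, 128 and 131 CPM (1.67 ± 0.36, adjusted p = 0.230). The smooth muscle and pericyte class and endothelial-like cells also had 0 called.

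In epithelial-like cells 1 of 5 receptor genes and 1 of 6 degradation genes tested were called, both lower, and 0 in the other lists, where 1.04% of all genes were called lower. ITGA2 is also a basal marker, and the part of the basal-like share of the class in its value was not tested. ITGA2, the alpha chain of a collagen-binding integrin, stood at 144, 128, 41.3 and 43.4 CPM, and fell by 1.93 ± 0.22 on the log2 scale (edgeR, adjusted p = 0.0273). TIMP3, an inhibitor of matrix metalloproteases, stood at 587, 478, 144 and 188 CPM, and fell by 1.92 ± 0.28 (adjusted p = 0.0410). Neither gene overlapped between the groups.

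Over all cells of a library 25 collagens were tested and edgeR called 0, with 4 at an unadjusted p under 0.05 and 1 called by DESeq2, where 0.00955% of all genes were called by edgeR and 3.9% by DESeq2, and 11.8% were at an unadjusted p under 0.05. Collagens took 1.09%, 3.97%, 3.27% and 5.27% of all UMIs in Normal_1, Normal_2, Injury_1 and Injury_2, with overlapping groups. In such sums, fewer cells of a type and less RNA per cell cannot be told apart. In macrophage-like cells 9 were tested with 0 called by edgeR, where 0% of all genes were called. At an unadjusted p under 0.05 there were 2, against 12.4% of all genes. In T cell-like cells 5 were tested with 0 called, where 0.088% of all genes were called. At an unadjusted p under 0.05 there were 0, against 14.4% of all genes. DESeq2 was not run on these last classes.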

How the data were processed

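Mucosa was digested with collagenase and sequenced with the Chromium 3′ v3 kit. The authors deposited raw UMI counts per gene and barcode from Cell Ranger 6.0.1. The genome release is not given in the sources used here. The submitters' notes also name Seurat. Cells with at least 500 UMIs, 200 genes and at most 15% of UMIs in 13 mitochondrial genes were kept. Counts were scaled to 10000 a cell, and 1981 variable genes (2000 less 19 collagen rows) and 30 principal components were clustered (Seurat 5.3.0, Louvain resolution 0.8, sub-clusters 0.3). Of 29 clusters 5 stayed unnamed, the COCH cluster among them. The scoring that names clusters from markers was settled after seeing the data. Doublet scores came from Scrublet (scanpy 1.11.5, Python 3.11.15), and doublets were removed in an alternative only. UMIs were summed per class and library, with at least 10 cells for a level and 20 in each library for a test. Tests used edgeR 4.0.16 quasi-likelihood with TMM and filterByExpr (R 4.3.3), and an adjusted p under 0.05 as a call. Each library was 1 rabbit.

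Values per sample are given for collagens with a call, for up to 5 members of each collagen class with the highest mean CPM in each main cell class, and for members with over 60% of their summed class means in 1 class. Genes of processing lists are named where called. Members outside these rules were named after their values were seen. Members and lists were chosen with earlier results of these data known. On simulated counts for fibroblast-like, endothelial-like, smooth muscle and epithelial-like cells, 64%, 61%, 72% and 70% of 4-fold and 5%, 2%, 8% and 15% of 2-fold changes were recovered, with 9 of 78, 4 of 67, 17 of 97 and 18 of 103 calls false. Alternatives covered DESeq2 1.42.0, RLE factors, library size without collagen UMIs, no count filter, a replicate block, 10% mitochondrial UMIs, doublets, clustering settings and each library left out. Sequences of the genes were not used here.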

Additional observations from a re-analysis of the deposited data

How the results depend on the processing

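For the classes, the basal-like cells and the COL12A1 and COL4A1 contrasts, 514 values of 43 named differences were recomputed. Of these 456 kept direction and side of the threshold, 42 newly passed it, 9 no longer did and 7 changed sign. The sign changes were COL4A1 in endothelial-like cells with library size without collagen UMIs (0.041) and, with each library left out in turn, COL4A1 there (-0.45 to 0.46), COL4A2 there (-0.28 to 1.11) and COL4A4 in the smooth muscle and pericyte class (-0.13 to 0.52). Other sub-clusters and contrasts were not summarised. Without the filter on low counts, which adds thinly counted genes, edgeR called 5 collagens in fibroblast-like cells and 1 in the smooth muscle and pericyte class. It called 10 in epithelial-like cells, 8 in basal-like cells and 5 in each contrast of injury differences. Against endothelial-like cells it then called 317 of 14140 genes, and against the smooth muscle and pericyte class 269 of 13860. With the filter these were 6 of 8804 and 1 of 7743. For the classes and basal-like cells, and for the fits below with a library left out, the share of all genes called is not given. Those counts therefore do not set collagens apart. DESeq2 called 1 in fibroblast-like cells, 1 in endothelial-like cells, 4 in epithelial-like cells, 1 over all cells, and 1 and 2 for the difference of fibroblast-like from endothelial-like cells and from the smooth muscle and pericyte class. Library size without collagen UMIs called 1 in the former contrast and RLE factors 1 in the latter. With at most 10% mitochondrial UMIs 0 were called in epithelial-like cells. The cause of these changes was not tested. With each library left out in turn, which leaves 1 sample assumed to vary like the other group, edgeR called 0 to 1 collagens in fibroblast-like cells (1 without Normal_2), 0 to 12 in the smooth muscle and pericyte class (1 without Normal_1, 12 without Normal_2), 1 to 8 in epithelial-like cells, 3 to 10 in basal-like cells and 0 to 1 over all cells. Library size scaling moved the median of all genes by 0.24 in epithelial-like and 0.36 in basal-like cells, beside which COL4A4 fell by 3.41 and 3.21.

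The replicate numbers give 2 pairs and share only a number, with correlations of deviations of 0.0845 to 0.228. With the replicate number as a block, 0 collagens were called in epithelial-like cells. Type IV chains alone took 0.0452% of UMIs in fibroblast-like cells, against 0.0585% with COL15A1. Detection rose with depth: unthinned and at 2000 UMIs a cell it was 99.8% and 98.3% for COL14A1 in fibroblast-like cells, 71.3% and 46.9% for COL4A1 in endothelial-like cells, 35.6% and 21.2% for COL4A4 in the smooth muscle and pericyte class, 26.4% and 4.81% for COL4A5 in epithelial-like cells (2.48% at 1000 UMIs) and 63.5% and 49.8% for COL28A1 in glia-like cells. With 2 animals a group most 2-fold changes would be missed.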
